A study of Mus musculus with 8 samples.

Results

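Sox genes encode transcription factors that bind DNA through an HMG box, a domain that sits in the minor groove and bends the double helix. Groups of the family share a closely similar box: Sox4, Sox11 and Sox12 form SoxC, Sox5, Sox6 and Sox13 form SoxD, and Sox18 belongs to SoxF with Sox7 and Sox17. In blood, Sox4 is needed for B lymphopoiesis, Sox6 acts in red cell precursors where it helps to silence embryonic globin, and SoxF proteins are best known from vessels and from fetal blood stem cells. The 7 genes described here were Sox4, Sox5, Sox6, Sox11, Sox12, Sox13 and Sox18, taken by name from the 37980 gene rows of the table, and 6 of them were above 0 in at least 1 library. The list was selected on normalised counts of NA against WT MPPs seen in earlier results, so the differences of these genes between groups are given as a description and without a test.

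RNA was sequenced from multipotent progenitors (MPPs) of mouse bone marrow, short-lived descendants of stem cells that can still give rise to every blood lineage. The gate was Lin-CD48-ckit+Sca1+CD135+CD150-, and each library was made from 1000 sorted cells. The NA mice were NA LSL/+; Vav-Cre on the C57BL/6 strain: NUP98-HOXA10hd, a fusion of a nuclear pore protein fragment with the HOXA10 homeodomain, was expressed from the Rosa26 locus after Vav-Cre, active throughout blood cells, had removed a stop cassette. The WT mice were C57BL/6 without the fusion, and no Cre is named for them. There were 4 NA MPP and 4 WT MPP libraries, named here NA1 to NA4 and WT1 to WT4. The ages of these mice, the number of mice and whether the libraries came from separate mice are not given in the sources used here, so the spread between libraries may be technical. Means below are given ± SD over the 4 libraries of a group, and log2 fold changes, NA minus WT, ± SE.

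The values are normalised counts, estimated reads per gene that were divided by 1 size factor per library. Estimated depth lay between 3876904 and 4916984 reads, with NA4, WT2 and WT3 at 3960928 or below and the other 5 libraries at 4779627 or above. Hoxa10, part of which the fusion carries, was at 298 to 371 normalised counts with the fusion and 129.6 to 149 without it. Nup98, the other gene of the fusion, overlapped, at 71.4 to 98.0 with it and 59.5 to 88.3 without it (adjusted p = 0.443 by limma). Of the gate markers, Kit (c-kit) had means of 1362 and 1197 in the NA and WT libraries and Flt3 (CD135) of 1442 and 1374, and neither passed an adjusted p of 0.05 by limma. Ly6a (Sca1), at 1277 and 1548, and Cd48, which the gate excludes, at 17.7 and 56.1, were lower in NA MPPs (adjusted p = 0.0257 and 0.00711 by limma), and Slamf1 (CD150), also excluded, had means of 19.7 and 20.9. Xist was at 1104 ± 173 in WT MPPs and 1.92 ± 1.0 in NA MPPs, and Ddx3y, on the Y chromosome, at 0.22 ± 0.44 and 515 ± 175. Genotype and donor sex therefore cannot be told apart in any value below. Each library was also set against a weighted mix of the other 3 of its group, and the variance left was divided by the least that an independent library should leave. The ratio was 0.262 for NA4, 0.0833 for WT4, 0.329 for NA2 and 0.246 for WT1, and 1.07 to 1.83 for the other 4 libraries. A ratio below 1 means that less was left than an independent library should leave. Every SE and adjusted p below treats the 4 libraries of a group as independent and may therefore be too small. NA2 and WT1 were left out only 1 at a time. NA4 and WT4 had the lowest ratio of their groups. The log2 fold changes of the tested Sox genes are also given without these 2. So are the counts of called genes, over all genes and in the HMG box, SoxC-linked and SoxD-linked lists. Other values, adjusted p included, are from all 8 libraries unless stated. Calls over all genes fell from 2053 to 524 without NA4 and WT4.

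The HMG box is the part that makes these genes a family, and its coding DNA shows how far reads of 1 gene could be taken for another. The first 60 bases of the compared stretch are shown for all 7 genes, read 5′ to 3′ on the coding strand from the mm10 genome with capitals at each base that differs from Sox4. Each lies within 1 coding exon.
Sox4: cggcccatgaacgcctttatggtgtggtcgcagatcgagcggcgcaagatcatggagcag
Sox11: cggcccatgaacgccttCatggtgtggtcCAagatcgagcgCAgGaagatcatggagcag
Sox12: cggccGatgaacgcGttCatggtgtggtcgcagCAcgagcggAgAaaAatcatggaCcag
Sox5: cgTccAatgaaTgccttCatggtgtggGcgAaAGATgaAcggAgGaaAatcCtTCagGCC
Sox6: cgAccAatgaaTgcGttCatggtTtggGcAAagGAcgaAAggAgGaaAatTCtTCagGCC
Sox13: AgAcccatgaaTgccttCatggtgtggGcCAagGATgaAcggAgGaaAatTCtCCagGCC
Sox18: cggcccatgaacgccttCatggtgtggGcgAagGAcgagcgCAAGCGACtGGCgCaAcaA

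The Sox4 stretch is at chr13:28952782-28952841, the Sox11 stretch at chr12:27342199-27342258 and the Sox12 stretch at chr2:152397516-152397575. Those of Sox5, Sox6, Sox13 and Sox18 are at chr6:143841214-143841273, chr7:115489703-115489762, chr1:133385506-133385565 and chr2:181671222-181671281, and all 7 genes are on the minus strand. Of these 60 bases 6 differ between Sox4 and Sox11, 9 between Sox4 and Sox12, and 19 to 23 between Sox4 and the SoxD and SoxF genes. Over 180 bases of the box, Sox11 shared 91.1% of bases with Sox4 and Sox12 shared 85.0%. The SoxD genes shared 81.7% to 85.0% with each other and 55.6% to 61.7% with Sox4, and Sox18 shared 64.4%.

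**Figure D1:**
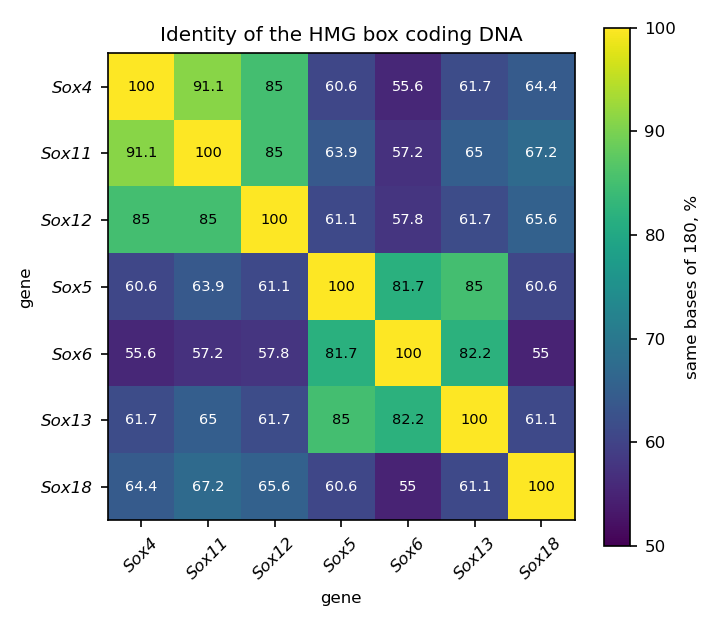
Heat map of the percentage of identical bases over 180 bases of HMG box coding DNA, for every pair of the 7 genes on both axes. The SoxC genes share 85.0% to 91.1% with each other and the SoxD genes 81.7% to 85.0%, while Sox4 shares 55.6% to 64.4% with the other groups.

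The longest run common to the transcripts of Sox4 and Sox11 was 48 bases, at chr13:28952749-28952796 in Sox4, inside the coding sequence of both. It is shown because a read shorter than this run could come from either gene.
Sox4 and Sox11: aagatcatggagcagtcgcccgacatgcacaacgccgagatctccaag
Of the 4765 words of 31 bases in the Sox4 transcript, 18 also occurred in Sox11, 3 in Sox12 and 0 in Sox5, Sox6, Sox13 or Sox18. Nearly all words of Sox4 were thus found in none of the other 6 genes.

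Sox4 was the most abundant Sox gene in every library. It was at 2311, 2646, 2889 and 2807 normalised counts in NA1 to NA4 and at 612, 626, 587 and 609.9 in WT1 to WT4. All 4 NA libraries lay above all 4 WT libraries, and the lowest NA value was more than 3 times the highest WT value. The means were 2663 ± 256 and 609 ± 16.3, a ratio of 4.37. The log2 fold change was 2.12 ± 0.09 on the log2(normalised count + 1) scale, and 78 of the 11451 genes tested, or 0.681%, had a log2 fold change at least as large, Sox4 included. Without NA4 and WT4 it was 2.10, and within the deeper and the shallower libraries it was 2.09 and 2.21. In rank, Sox4 stood between 162 and 219 among all genes in the NA libraries and between 1222 and 1376 in the WT libraries. In bulk libraries such as these, more cells with a transcript and more of it per cell cannot be told apart.

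The WT libraries lay close together for Sox4. The variance of their reads was 0.387 of what counting error alone would give on 2445 estimated reads, while that of the NA libraries was 25.8 times counting error. The coefficient of variation was 9.60% among the NA and 2.68% among the WT libraries. NA1 was the lowest of the NA libraries for Sox4 and the highest of all 8 for Sox6.

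The other SoxC genes did not share the level of Sox4. Sox12, a broadly expressed SoxC gene, was at 19.6, 9.40, 54.5 and 40.2 normalised counts in NA1 to NA4 and at 23.1, 21.5, 29.6 and 19.5 in WT1 to WT4. The NA values lay on both sides of the WT values, with NA3 and NA4 above every WT library and NA2 below every one. The log2 fold change was 0.13 ± 0.47. Its sign rested on single libraries, being -0.23 without NA3, -0.08 without NA4, -0.16 without NA4 and WT4 and -0.11 without NA3 and WT3. NA3, the library highest for Sox12, was also highest for the marker list of bone marrow stroma, which summed to 106, 138, 303 and 135 normalised counts in NA1 to NA4 against 138 to 168 in WT MPPs. In NA3 Cxcl12, a chemokine of stromal cells, stood at 100.6, Adipoq, a fat cell hormone, at 15.7, Lepr at 19.4 and Pdgfrb at 95.1. Each of these was above the WT range, Pdgfrb also in NA2 and NA4. The collagen genes Col1a1 and Col1a2 were at 0 and 41.6 in NA3 and Vcam1 at 29.6, none of them above the WT range. Of the list, 9 of the 10 markers were detected in some library and the osteoblast gene Bglap was at 0 in all 8. The part of such transcripts in the Sox12 values was not tested.

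Sox11, known mainly from developing neurons, was at 0 in all 8 libraries. A count of 0 allows up to 3 reads, which is 2.66 to 3.54 normalised counts depending on the library and covers counting error only. Expression below that limit was not detectable at this depth.

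**Figure D2:**
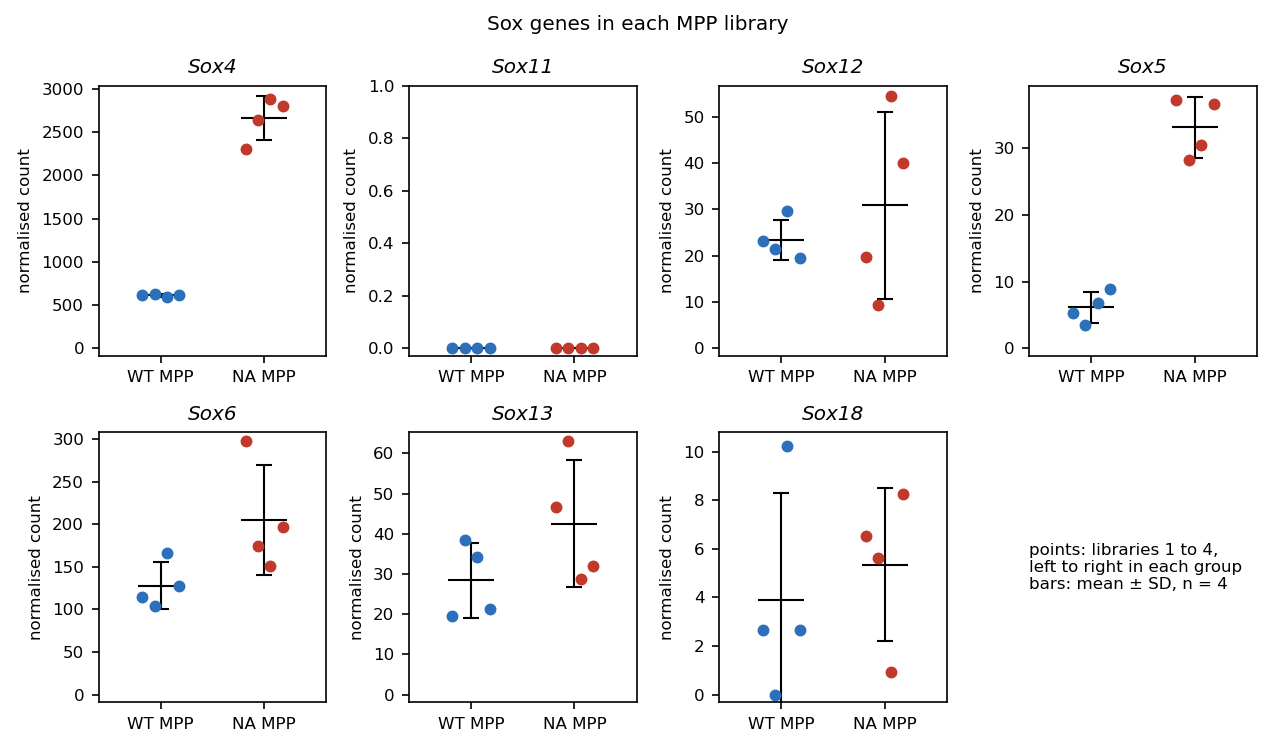
Normalised counts of the 7 Sox genes in each library, 1 panel per gene with its own vertical axis from 0. Points are libraries and bars the mean ± SD of 4 libraries. The NA and WT points are apart for Sox4 and Sox5 and overlap for Sox6, Sox12, Sox13 and Sox18, and Sox11 is at 0 throughout.

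Among the SoxD genes, which lack a known activation domain and pair through a coiled coil, Sox5 differed most. It was at 37.3, 28.2, 30.5 and 36.6 normalised counts in NA1 to NA4 and at 5.33, 3.4, 6.83 and 8.88 in WT1 to WT4. The groups did not overlap. The WT values stand for only 25 estimated reads in all 4 libraries, against 134 in NA MPPs. The means were 33.2 ± 4.52 and 6.11 ± 2.32, a ratio of 5.43, and the log2 fold change was 2.32 ± 0.41. Because the WT level is low, the added constant matters: with 5 added in place of 1 the log2 fold change was 1.80. Without NA4 and WT4 it was 2.45.

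Sox6 was the second most abundant of the 7 genes in both groups, whether as counts or per length. Its values were 298, 174, 150.5 and 197 normalised counts in NA1 to NA4 and 115, 104, 166 and 127 in WT1 to WT4. Here NA1 stood far above the rest, and WT3 lay above NA3. The means were 205 ± 64.8 and 128 ± 27.1, and the log2 fold change was 0.65 ± 0.21. It was 0.45 without NA1, 0.65 without NA4 and WT4 and 0.91 without NA3 and WT3.

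Sox13, which is known from gamma delta T cells, was at 46.7, 63.0, 28.6 and 31.9 normalised counts in NA1 to NA4 and at 19.5, 38.5, 34.2 and 21.3 in WT1 to WT4. The groups overlapped, and NA3 and NA4 lay among the WT values. The log2 fold change was 0.56 ± 0.34. It was 0.35 without NA2 and 0.55 without NA4 and WT4. In the 5 deeper libraries the difference of mean log2 values, NA minus WT, was 1.07, and in the 3 shallower libraries, with NA4 alone against WT2 and WT3, it was -0.18. The higher mean was therefore not seen in both depth classes.

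Sox18, the SoxF gene, was near the detection limit, at 6.53, 5.64, 0.92 and 8.27 normalised counts in NA1 to NA4 and at 2.66, 0, 10.2 and 2.66 in WT1 to WT4. The highest and the lowest value were both from WT libraries. The means were 5.34 ± 3.14 and 3.89 ± 4.42, on 21 and 15 estimated reads, and the gene failed the filter of 10 normalised counts in 4 libraries. No fold is given. Sox18 marks vessels, and of the 10 endothelial markers listed, Cdh5, a defining gene of vessel walls, and Sox17 were at 0 in every library. The summed endothelial list was 869 to 983 in NA MPPs and 1009 to 1184 in WT MPPs. Emcn held 442 to 515 and 355 to 459 of this, and the rest summed to 410 to 477 and 637 to 725. Of 4 tested, 0 were higher and 2 lower, Tek and Egfl7 (adjusted p = 0.0128 and 0.0052 by limma), beside 10.1% and 7.87% of all tested genes. Their part in the Sox18 values was not tested.

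Of the 7 genes 5 passed the filter, and for 2 of these, Sox4 and Sox5, the groups did not overlap with NA above WT, where 11.5% of all tested genes did so. Sox5 passed the filter only through its NA libraries, as its WT values were at most 8.88. For that reason, and since the list was drawn up with this contrast in view, nothing is read from that count.

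**Figure D3:**
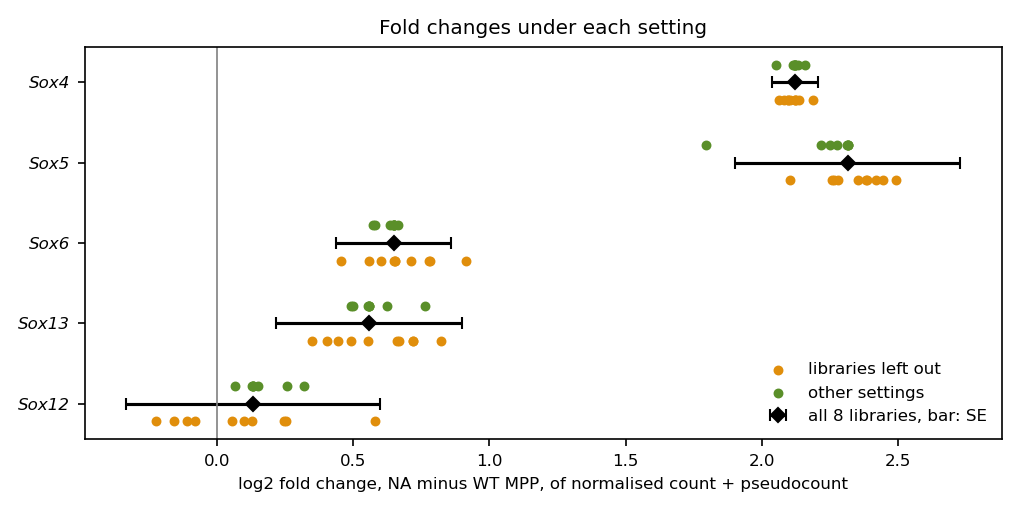
Log2 fold change, NA minus WT, of the 5 Sox genes that passed the filter on the horizontal axis, with 1 row per gene. The diamond and bar are the value and SE from all 8 libraries, orange points come from leaving libraries out and green points from other settings. Sox4 stays between 2.05 and 2.19 and Sox5 between 1.80 and 2.50, while Sox12 runs from -0.23 to 0.58.

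Levels between genes were compared per kb of exon. In NA MPPs the order was Sox4 at 555.5 ± 53.3 normalised counts per kb, Sox6 at 13.8 ± 4.37, Sox13 at 9.87 ± 3.65, Sox12 at 6.94 ± 4.55, Sox18 at 3.30 ± 1.94 and Sox5 at 2.31 ± 0.31. In WT MPPs the order was the same, from 127 ± 3.41 for Sox4 through 8.63 ± 1.83 for Sox6, 6.58 ± 2.18 for Sox13, 5.26 ± 0.98 for Sox12 and 2.40 ± 2.73 for Sox18 to 0.42 ± 0.16 for Sox5. Sox4 stood clear of Sox6 in both groups. Each neighbouring pair from Sox6 down to Sox5 overlapped in its library values in both groups. The lowest place of Sox5 depends on the length used in NA MPPs but not in WT MPPs. The exons of all its transcripts add up to 14376 bases, while its longest transcript has 7243. Per kb of that transcript it was at 4.58 ± 0.62 in NA MPPs, where the mean of Sox18 was 3.30. In WT MPPs it was at 0.84 ± 0.32, still the lowest of the detected genes, with Sox18 at 2.40.

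**Figure D4:**
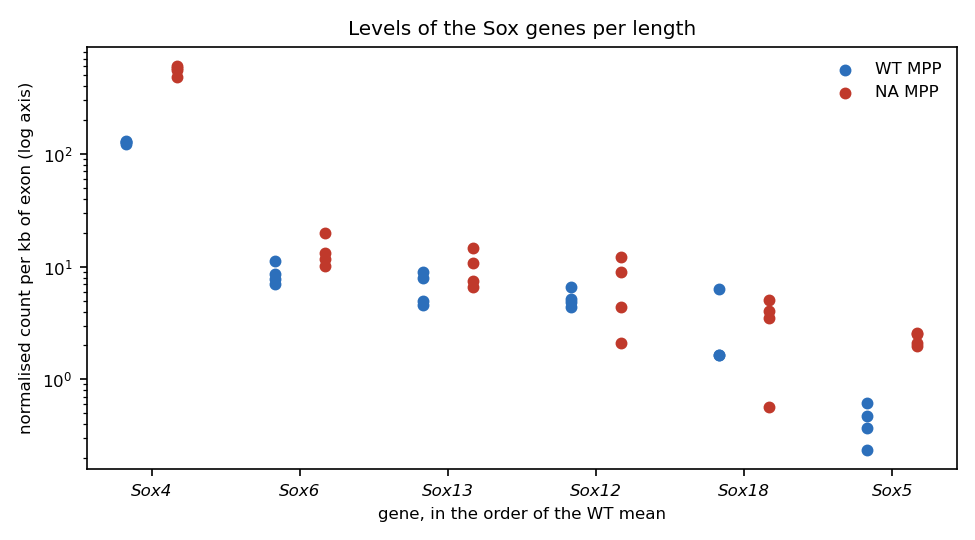
Normalised counts per kb of exon on a log axis for the 6 detected Sox genes, ordered by the WT mean, with WT libraries in blue and NA libraries in red. Sox11 and the 1 WT library without Sox18 are at 0 and are not drawn. On this scale Sox4 lies more than 10 times above every other gene in WT as in NA MPPs. Per kb of the longest transcript the WT means of Sox4 and Sox6 are closer, at 127 and 14.8.

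Sox4 made up 85.0% to 91.3% of the summed normalised counts of all Sox genes in the NA libraries and 70.1% to 78.8% in the WT libraries. WT3 had the lowest share, with the highest Sox6 of the WT group. Of the 13 other Sox family genes listed, 12 had a row, 7 of these were at 0 in every library and 5 had values of at most 6.46 normalised counts. None of them passed the filter, so none was tested. The silent genes included Sox2 and Sox3, of neural and pluripotent cells, and Sox17, while Sox7, Sox8, Sox9, Sox15 and Sox30 were seen in traces.

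Sox4 lies at chr13:28948919-28953713 (mm10), a gene without introns of 4795 bases. On the opposite strand the long noncoding RNA Gm26735 covers 2616 of its exon bases. Gm26735 is not analysed here, and the library kit does not mark strand, so reads of the overlap cannot be assigned to 1 of the 2 genes. Sox5, at chr6:143828425-144781977, shares 1330 exon bases with the antisense Sox5os1, which was at 0 in all libraries. Sox6 is at chr7:115470872-116038796, and its antisense partner Sox6os shares no exon base with it and was above 0 in NA2 only, at 0.94. The other members are Sox11 at chr12:27334264-27342574, Sox12 at chr2:152393611-152398063, Sox13 at chr1:133382303-133424377 and Sox18 at chr2:181669836-181671640.

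The promoters of Sox4 and Sox5 are shown because these 2 genes differed most between the groups. They are the 250 bases before the start in RefSeq (GRCm38.p6), on the minus strand, at chr13:28953700-28953949 for Sox4 and chr6:143947107-143947356 for Sox5, where this start lies inside the Ensembl gene. Capitals mark a match to any of 6 motifs searched on both strands.
Sox4: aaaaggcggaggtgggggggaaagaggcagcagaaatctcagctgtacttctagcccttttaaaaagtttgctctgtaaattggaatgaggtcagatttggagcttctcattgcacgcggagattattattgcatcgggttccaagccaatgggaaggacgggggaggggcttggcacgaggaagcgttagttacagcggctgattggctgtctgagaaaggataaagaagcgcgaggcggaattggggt
Sox5: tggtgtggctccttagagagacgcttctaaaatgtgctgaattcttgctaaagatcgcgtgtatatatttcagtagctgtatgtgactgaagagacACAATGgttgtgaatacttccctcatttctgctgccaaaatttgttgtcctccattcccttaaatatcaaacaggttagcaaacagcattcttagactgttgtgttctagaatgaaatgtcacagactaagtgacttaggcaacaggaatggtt

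The motifs were the PBX-HOX composite TGATTNAT, found in 2.83% of 32817 mouse promoters of that length, the MEIS core TGACAG in 15.9%, AP-1 TGANTCA in 6.75%, the CRE core TGACG in 17.7%, the SOX core ACAANG in 36.3% and the GC box GGGCGG in 32.7%. The Sox4 window held none of them. The Sox5 window held 1 SOX core, from 154 to 149 bases before the start, the Sox11 window 2 GC boxes, and the Sox12 window 1 CRE core and 3 GC boxes. Sox6 has 6 annotated starts, whose windows held 11 SOX cores, 4 GC boxes, 2 MEIS cores and 1 CRE core, and the Sox13 window held none. GC content was 50.8% for Sox4 and 39.6% for Sox5, against a median of 52.4% over all promoters. A match or its lack describes these letters only.

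The genes beside the Sox members were measured with the same libraries and were not used to choose them. Of the 14 nearest tested neighbours 1 was higher in NA MPPs and 0 were lower by limma with Benjamini-Hochberg adjustment over all genes tested, beside 10.1% and 7.87% of all 11451 genes. At an unadjusted p below 0.05 there were 3 higher and 3 lower, and the median log2 fold change of the 14 was 0.00, against -0.01 for all genes. Beside Sox4, 2610307P16Rik, a noncoding RNA gene that ends 63.3 kb away, was at 134 ± 33.3 normalised counts in the NA and 132 ± 12.0 in the WT libraries, with a log2 fold change of 0.00 ± 0.18. On the other side Cdkal1, which modifies a transfer RNA, was at 56.0 ± 21.3 and 34.8 ± 4.91, with a log2 fold change of 0.60 ± 0.30 and an adjusted p of 0.188 by limma. The neighbour that passed was Etnk1, an ethanolamine kinase 596 kb from Sox5. It was at 1111, 1200.4, 1002 and 1266 normalised counts in NA1 to NA4 and 678, 897, 741 and 772 in WT1 to WT4, with no overlap, and its log2 fold change was 0.57 ± 0.10 (adjusted p = 0.00222 by limma). The gene closest to any member, 1110004F10Rik, begins 0.601 kb from Sox6 and was at 997 ± 119 and 954 ± 73.5, with a log2 fold change of 0.06 ± 0.10 (adjusted p = 0.722 by limma).

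HMG boxes also occur outside the Sox family, in chromatin proteins and in the TCF/LEF factors of Wnt signalling. Of 22 such genes 18 were tested, 6 were higher in NA MPPs, 1 was lower and 11 did not pass. Across all tested genes 17.9% passed in either direction. The median log2 fold change of the 18 was 0.32. Without NA4 and WT4 2 of them passed, and 4 without WT4.

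Hmgb1, an abundant chromatin protein that bends DNA, was at 3340, 2899, 3022 and 3073 normalised counts in NA1 to NA4 and 1174, 1320, 1502 and 1412 in WT1 to WT4. All NA values were above all WT values, and the log2 fold change was 1.19 ± 0.09 (adjusted p = 8.2e-07 by limma). Hmgb2, its relative in dividing cells, was at 714 ± 40.5 and 385 ± 30.6, a log2 fold change of 0.89 ± 0.10 (adjusted p = 4.0e-05 by limma). Hmgb3, which is known from blood stem cells, was at 178 ± 3.62 and 177 ± 8.40 (adjusted p = 0.984 by limma). Hmgb1 has processed copies in the genome, the rows named as such did not exceed 1.85 normalised counts in any library, and reads that the counting could split between them remain uncertain.

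The other genes that rose were Bbx, a little-studied HMG box factor, with a log2 fold change of 0.68 ± 0.13 (adjusted p = 0.00222 by limma), Tox, of T cell development, with 0.60 ± 0.15 (adjusted p = 0.013), Pbrm1, a subunit of a chromatin remodeller, with 0.47 ± 0.11 (adjusted p = 0.0112), and Ubtf, which acts on ribosomal RNA genes, with 0.36 ± 0.12 (adjusted p = 0.0414). Wdhd1, a replication fork protein, fell by 0.60 on the log2 scale (SE 0.19, adjusted p = 0.0431 by limma). Ubtf and Wdhd1 are the least secure of these, as they failed under 12 and 11 of the 19 alternatives, Bbx, Tox and Pbrm1 failed without NA4 and WT4, and Tox also without either of the 2. The Wnt factor Tcf7l1 was at 41.1, 31.02, 27.7 and 33.1 in NA1 to NA4 and 16.0, 6.79, 19.4 and 24.0 in WT1 to WT4, with an adjusted p of 0.076 by limma. Tcf7 and Lef1, which mark T cells, were at or under a mean of 3.13 normalised counts and were not tested.

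**Figure D5:**
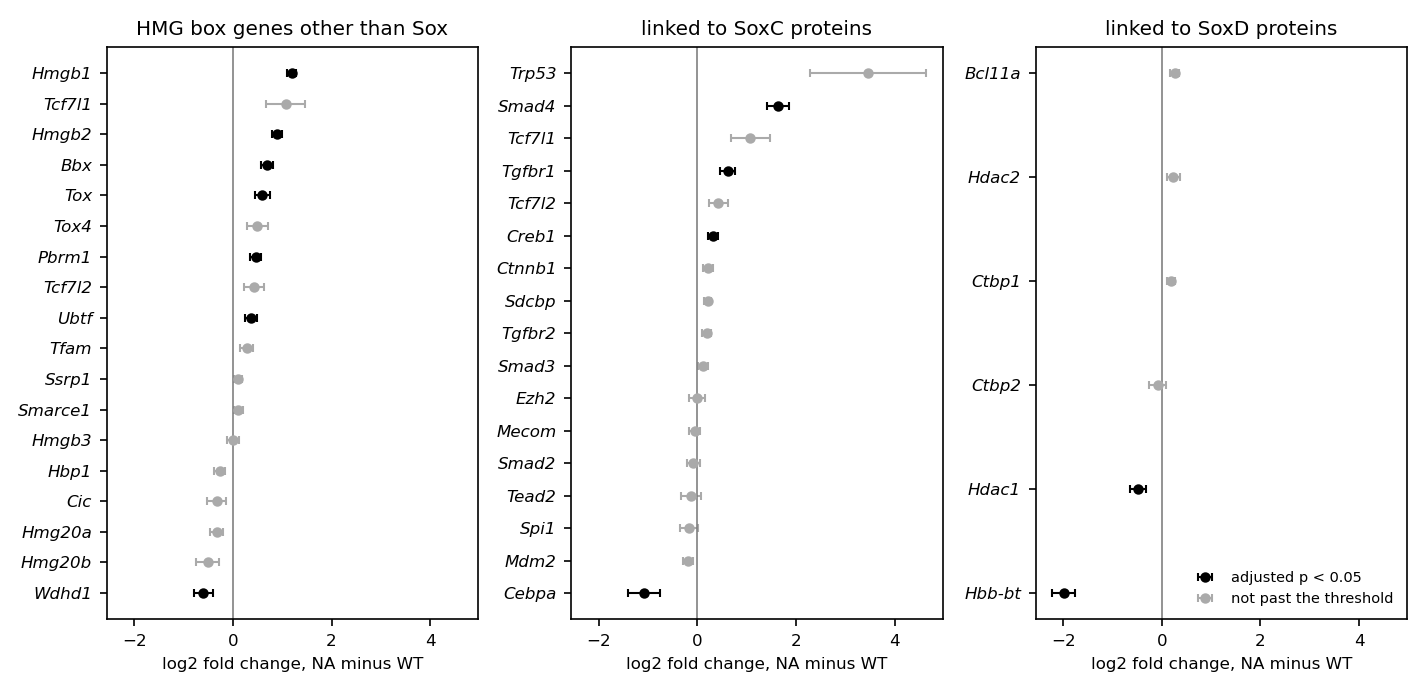
Log2 fold change, NA minus WT, with its SE for the tested genes of 3 lists: HMG box genes that are not Sox genes, genes linked to SoxC proteins, and genes linked to SoxD proteins. Black points passed an adjusted p of 0.05 and grey points did not. Hmgb1 and Smad4 lie furthest to the right among the genes that passed, and Hbb-bt furthest to the left.

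Genes linked to SoxC proteins, that is their partners, regulators and known targets, passed the test in 4 of 17 cases. Of 22 listed 17 were tested, 3 were higher in NA MPPs, 1 was lower and 13 did not pass, beside 17.9% of all genes that passed in either direction. The median log2 fold change was 0.18, against -0.01 for all genes. Smad4, the common partner in TGF-beta signalling, through which Sox4 is induced, was at 341, 611, 602 and 607 normalised counts in NA1 to NA4 and 159.8, 249, 116 and 174 in WT1 to WT4. The groups did not overlap, and the log2 fold change was 1.63 ± 0.22 (adjusted p = 0.000253 by limma). Tgfbr1, a receptor of the same pathway, was at 309 ± 53.3 and 201 ± 28.0, a log2 fold change of 0.61 ± 0.15 (adjusted p = 0.0143). Tgfbr2, the partner receptor, was at 498 ± 32.1 and 438.5 ± 26.2 (adjusted p = 0.21), and Smad2 and Smad3 at adjusted p of 0.683 and 0.482 by limma. Creb1 rose by 0.31 ± 0.10 on the log2 scale (adjusted p = 0.0378).

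Cebpa, a myeloid factor, was at 41.1, 32.9, 14.8 and 24.8 normalised counts in NA1 to NA4 and 56.8, 66.8, 43.3 and 68.4 in WT1 to WT4. It fell by 1.09 on the log2 scale (SE 0.33, adjusted p = 0.0324 by limma), with the groups apart. Trp53, whose protein Sox4 is known to stabilise, was at 534, 359, 412 and 389.8 in NA1 to NA4 and 70.1, 271, 0 and 110.1 in WT1 to WT4. The WT values were widely spread, with Trp53 listed at 0 in WT3, and the log2 fold change of 3.46 ± 1.18 did not pass (adjusted p = 0.0556 by limma), with a range of 0.00528 to 0.186 over the alternatives. Without WT3 the log2 fold change was 1.70, and it then passed (adjusted p = 0.00528 by limma). The processed copy Trp53-ps was listed at 0 throughout. Of the partners, beta-catenin (Ctnnb1), at 1415 ± 91.0 and 1222 ± 171, did not pass (adjusted p = 0.149). Without NA4 and WT4 the list had 1 call, Smad4, whose adjusted p was at most 0.00957 over the 19 alternatives. The calls of Creb1, Cebpa and Tgfbr1 were lost under 12, 8 and 3 of them, each without NA4 among others.

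The SoxD-linked list, partners of these proteins in red cells together with the globin genes, had 14 genes of which 6 were tested, 0 were higher and 2 lower by limma, beside 10.1% higher and 7.87% lower of all tested genes. At an unadjusted p below 0.05 there were 2 higher and 2 lower. Hbb-bt, an adult beta globin, was at 43.9, 56.4, 36.0 and 28.3 normalised counts in NA1 to NA4 and 184.7, 158.5, 131 and 178 in WT1 to WT4. It fell by 1.99 on the log2 scale (SE 0.23, adjusted p = 6.8e-05 by limma) with the groups well apart. The near-identical Hbb-bs was at 0.70 ± 1.41 and 4.39 ± 1.78, so the split of reads between the pair is uncertain. The embryonic globin genes Hbb-y, Hbb-bh1 and Hba-x, targets that Sox6 silences in red cells, were at 0 in all 8 libraries, in NA and in WT alike. Hdac1, a repressor subunit, fell by 0.48 (SE 0.15, adjusted p = 0.0407 by limma), a call lost under 11 of the 19 alternatives. Bcl11a, which acts with Sox6 on globin genes, was at 1313 ± 90.9 and 1096 ± 93.8 (adjusted p = 0.0538 by limma). Summed markers of red cells were 4665 to 5356 in NA MPPs and 4860 to 5091 in WT MPPs, but Car2, an enzyme not confined to red cells, held 4470 to 5131 of this. The rest of the list, Hbb-bt included, summed to 194 to 242 in the NA and 381 to 516 in the WT libraries, without overlap. Car1, another carbonic anhydrase of red cells, was at 0 in all NA libraries and at 71.9, 1.13, 9.11 and 33.7 in WT1 to WT4, and Gata1 and Klf1 were too low to test. The part of red cell transcripts in the values of Hbb-bt and the Sox genes was not tested.

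Markers of B lymphoid and lymphoid-primed cells, the lineage in which Sox4 is best known, summed to 170.1 to 305 normalised counts in the NA and 438 to 549.5 in the WT libraries. Dntt, the polymerase that adds bases to antigen receptor joints, carried this, at 27.1 to 54.5 against 194 to 242, and it fell by 2.53 on the log2 scale (SE 0.22, adjusted p = 5.5e-06 by limma). Without Dntt the list overlapped, at 116 to 278 in the NA and 239 to 307 in the WT libraries. Of the 12 listed 3 were tested, Dntt was lower and 0 were higher, beside 7.87% and 10.1% of all tested genes, and Cd79b and Blnk had adjusted p of 0.156 and 0.988 by limma. The defining Pax5 and Igll1 were at 0 in all libraries. Rag1 and Rag2, which Sox proteins are known to act upon, had means of at most 1.83 and were not tested. Summed markers of neutrophils and monocytes were 3146 to 3382 in NA MPPs and 3594 to 4693 in WT MPPs, highest in WT3, where S100a9 reached 158. Prtn3 held 1371 to 1677 and 1711 to 2291 of this, and without it the list overlapped, at 1701 to 1808 and 1790 to 2433. Of 6 tested, 0 were higher and 2 lower, Prtn3 and Mpo (adjusted p = 0.0181 and 0.0422 by limma), and Elane was at 0 in all libraries. Markers of megakaryocytes summed to 4541 to 4982 in the NA and 3504 to 3688 in the WT libraries, and of 9 tested only Plek, a platelet signalling protein, passed, with a log2 fold change of 1.08. Markers of mast cells summed to 1068 to 1257 and 813 to 1014, nearly all of it Gata2, and the defining Mcpt8 was at 0. Of 2 tested, 1 was higher, Gata2, with a log2 fold change of 0.33 (adjusted p = 0.0275 by limma), and 0 were lower. Markers of T and NK cells overlapped, at 259.8 to 346 and 306 to 448.5. Of 4 tested, 0 were higher and 1 lower, Lck, with a log2 fold change of -0.64 (adjusted p = 0.037 by limma). The part of all these marker transcripts in the Sox values was not tested.

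Over the 8 libraries, the genes most like Sox4 among the 8869 ranked (mean normalised count of 50 or more) were Ddx3y, Sdc4, Eif2s3y, Stk25 and Tnpo1, with Pearson r from 0.993 to 0.996. The lowest r were those of Xist at -0.995, Arhgdib, Mospd3, Hsd3b7 and Rfng. These points share the group difference, and with it donor sex, as 171 genes or 1.93% had an r above 0.95. After the group means were subtracted the 5 highest fell to between 0.223 and 0.646. Among the Sox genes, r with Sox4 was 0.952 for Sox5, 0.665 for Sox6, 0.516 for Sox13 and 0.136 for Sox12 over all 8 libraries. Within groups it was -0.30, -0.87, -0.42 and 0.48. Sox5 and Sox4 thus shared the step between the groups. The variance of Sox5 reads was 0.634 of counting error in the NA and 0.868 in the WT libraries. Its r within groups therefore cannot show whether the 2 genes vary together there. The within-group value of Sox6 comes from 8 libraries, in which NA1 had the lowest Sox4 and the highest Sox6 of the NA group. Among the WT libraries the variance of Sox4 reads was only 0.387 of counting error. How many of all genes reach such an r within groups was not counted, so nothing is read from it.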

How the data were processed

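Libraries of 1000 sorted MPPs were compared, 4 NA with 4 WT, grouped by sample title. Per the labels, polyA RNA was copied to cDNA, amplified and made into libraries by tagmentation, and the submitters' processing notes name bcl2fastq, RSEM, DESeq2 and mm10, with no versions. The deposited values are a normalised signal, although the table is named as raw counts: as read from the values, the authors had scaled the expected counts of every library by its size factor. Between 98.4% and 98.9% of values from 0.5 to 100 fell within 0.05 of a multiple of the value of 1 read, which was 0.888 to 1.18, and division by it estimated reads.

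Genes that reached 10 normalised counts in 4 or more of the 8 libraries were tested with limma 3.58.1 (R 4.3.3) on log2(normalised count + 1), with a variance trend and Benjamini-Hochberg adjustment over all genes tested and a threshold of 0.05. Python 3.11.15 and GENCODE M21 (mm10) gave the summaries, names and positions, with 32916 of 37980 rows named and 17710 above 0. Promoters were from RefSeq, with 6 of the 7 genes matched. Intervals and floors of 3 reads cover counting error only, since amplified cDNA has no molecular identifiers.

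The members and lists were chosen with earlier results of these data known. Named genes were the 7 members, list genes past the threshold and up to 3 others of each list, nearest tested neighbours, overlapping genes, the 5 highest and 5 lowest r with Sox4, and checks of fusion, sex and markers. Hmgb3, Tcf7, Lef1, Tgfbr2, Smad2, Smad3, Rag1, Rag2, Hbb-bs, Gata1, Klf1, Car1, Car2, the embryonic globins, marker genes singled out in lists and the processed copies were named after their values were seen. Alternatives were other scalings, filters, added constants and covariates, a replicate block and left-out libraries.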

Additional observations from a re-analysis of the deposited data

Results flagged for a closer look

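In 32 groups of 4 libraries, 1 value stood far from the other 3 in 2 groups, where about 1 in 20 groups would do so by chance. The estimated depth of NA4 was 3887850 reads, against 4909380 to 4916980 in the other NA libraries, and NA4 was neither the highest nor the lowest NA library for Sox4, Sox5, Sox6, Sox12 or Sox13. The summed markers of bone marrow stroma in NA3 were 303 normalised counts, against 106 to 138 in the other NA libraries, and NA3 held the highest Sox4 and Sox12 and the lowest Sox6 and Sox13 of its group. Their part in these values was not tested.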

How the results depend on the processing

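The log2 fold change of Sox4 kept its direction and stayed between 2.05 and 2.19 under 19 alternatives, and between 2.08 and 2.19 with single libraries left out. Sox5, Sox6 and Sox13 also stayed positive, and Sox12 changed sign as given above. Calls over all genes ranged from 1125 to 2176 with 1 library left out, lowest without NA4 and at 1279 without WT4, and were 2053 with all 8, 1574 with no filter on low values and 524 without NA4 and WT4. Scaling by total count called 2240, of which 41.4% were higher against 56.1%, and moved the median log2 fold change of all genes from -0.01 to -0.08. The HMG box list gave 7 calls, 4 to 7 with 1 library left out and 2 without NA4 and WT4. The SoxC-linked list gave 4 calls, 1 to 5 with 1 library left out, 2 with no filter, 2 with the GC trend removed and 1 without NA4 and WT4, and it gave 6 without NA3 and WT3, a setting chosen after seeing the data. The SoxD-linked list gave 2 calls, 1 to 2 with 1 library left out, and 1 with no filter, with no variance trend or without NA4 and WT4. The neighbours gave 1 call, and 2 under total count scaling or with the GC trend removed. The cause of these shifts was not tested, except that leaving libraries out leaves fewer samples. For 53 list genes and neighbours, 918 of 1003 alternative values stayed on the same side of the threshold, 63 lost and 22 gained it, and 0 that passed in either fit changed sign.

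Same-numbered libraries of the 2 groups were not shown to be paired: their deviations correlated at 0.087, 0.027, 0.013 and 0.158, and libraries 2 and 3 did not correlate best with their own number. With the replicate number as a block 2004 genes were called and the Sox4 log2 fold change was 2.12. DESeq2 and edgeR, planned as alternatives on reads estimated from the scaled values, were not run. How their calls would compare with those of limma was therefore not tested. Depth limits Sox5, Sox11 and Sox18, where WT MPPs held 25, 0 and 15 estimated reads.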
